A study of Homo sapiens with 6 samples.

Results

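The BCL2 family sets the threshold at which a cell dies by apoptosis. Anti-apoptotic members such as BCL2, BCL2L1 and MCL1 hold the pore-forming members BAX and BAK1 in check at the mitochondrial outer membrane, and BH3-only members relay death signals by binding the anti-apoptotic proteins or by activating the pore-formers directly. When BAX or BAK1 opens the membrane, cytochrome c leaves the mitochondrion and starts the caspase cascade. In breast cancer cells, MCL1 and the BCL-XL protein encoded by BCL2L1 are known as survival factors. The set described here was given as a list of 10 genes of this family, of which all 10 were present among the 15651 genes measured and all 10 were tested, with 3 anti-apoptotic members (BCL2, BCL2L1 and MCL1), 2 pore-forming members (BAX and BAK1) and 5 BH3-only members (BCL2L11, BBC3, PMAIP1, BID and BMF).

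Cells of MDA-MB-231, an established human triple-negative breast cancer (TNBC) line, were treated with DMSO, the vehicle, or with BRL-50481, an inhibitor of the cAMP-degrading enzyme PDE7A, and their RNA was sequenced in 3 libraries per group. The labels give 50 µM for 72 h in their protocol text and 5 µM and 48 h in their treatment tag. The comparison of both groups asked which genes responded to PDE7A inhibition in these cells. All libraries come from 1 cell line. The series record calls the libraries biological replicates without saying how the cultures were separated. The p-values therefore set the difference between the groups against the spread between these libraries.

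The libraries held 30750573 to 33446984 reads on genes, and values are normalized counts, that is, reads of a gene divided by a size factor of the library. The first DMSO library stood farthest from its group (SD of its log2 deviations 0.141, against 0.0791 to 0.119 in the other libraries). VIM, CD44 and AXL, markers of this mesenchymal line, lay above the 99th percentile of all genes, whereas SPARC, listed as a marker too, stayed between 13.3 and 36.3 normalized counts. PGR reached at most 7.75, CDH1 lay between 31.7 and 48.6 in DMSO and between 93.1 and 105 in BRL-50481 (log2 fold change 1.39, limma adjusted p = 4.28e-05), and EPCAM and ERBB2, also listed as low, were at 674 to 773 and 1606 to 1979. Of the markers of other cells, PECAM1 lay between 325 and 396 in DMSO and between 460 and 537 in BRL-50481 (log2 fold change 0.48, limma adjusted p = 0.000851). COL1A1 lay between 309 and 363 over both groups. ESR1, listed as low, and PTPRC, a marker of other cells, were not among the genes measured. Of the 9 markers tested, 7 were called higher under BRL-50481, 1 lower (EPCAM) and 1 was not called (COL1A1), so that markers moved along with the members, and their part in the results below was not tested. PDE7A itself was at 406, 405 and 409 normalized counts in the DMSO libraries and at 341, 292 and 261 in the BRL-50481 libraries, a log2 fold change of -0.45 (SE 0.103, limma adjusted p = 0.00199).

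Of the 3 anti-apoptotic members, MCL1 and BCL2L1 rose under BRL-50481 and BCL2 fell. Of the 7 pro-apoptotic members, 5 fell (BCL2L11, BID, PMAIP1, BMF and BAX) and 2 did not pass the test (BBC3 and BAK1). In all, 2 of 10 members were called higher and 6 of 10 lower by limma at a Benjamini-Hochberg adjusted p under 0.05 over the 15246 genes tested. Among all genes tested, 28.9% were called higher and 29.8% lower, and among the 9792 genes whose mean normalized count was 300 or more, 29.9% were higher and 38.6% lower, so that a call in either direction was common in this comparison. The median log2 fold change was -0.35 for the pro-apoptotic members and 0.41 for the anti-apoptotic members, against 0.015 for all genes tested, and fold changes are on the scale of log2 of the normalized count plus 1. No pro-apoptotic member was called higher by limma in the main setting, by edgeR or by DESeq2 (0 each). BBC3 alone was higher at an unadjusted limma p under 0.05, and it was called higher in 5 of 17 alternative settings. As these are bulk libraries, fewer cells of a kind and less RNA per cell cannot be told apart.

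**Figure D1:**
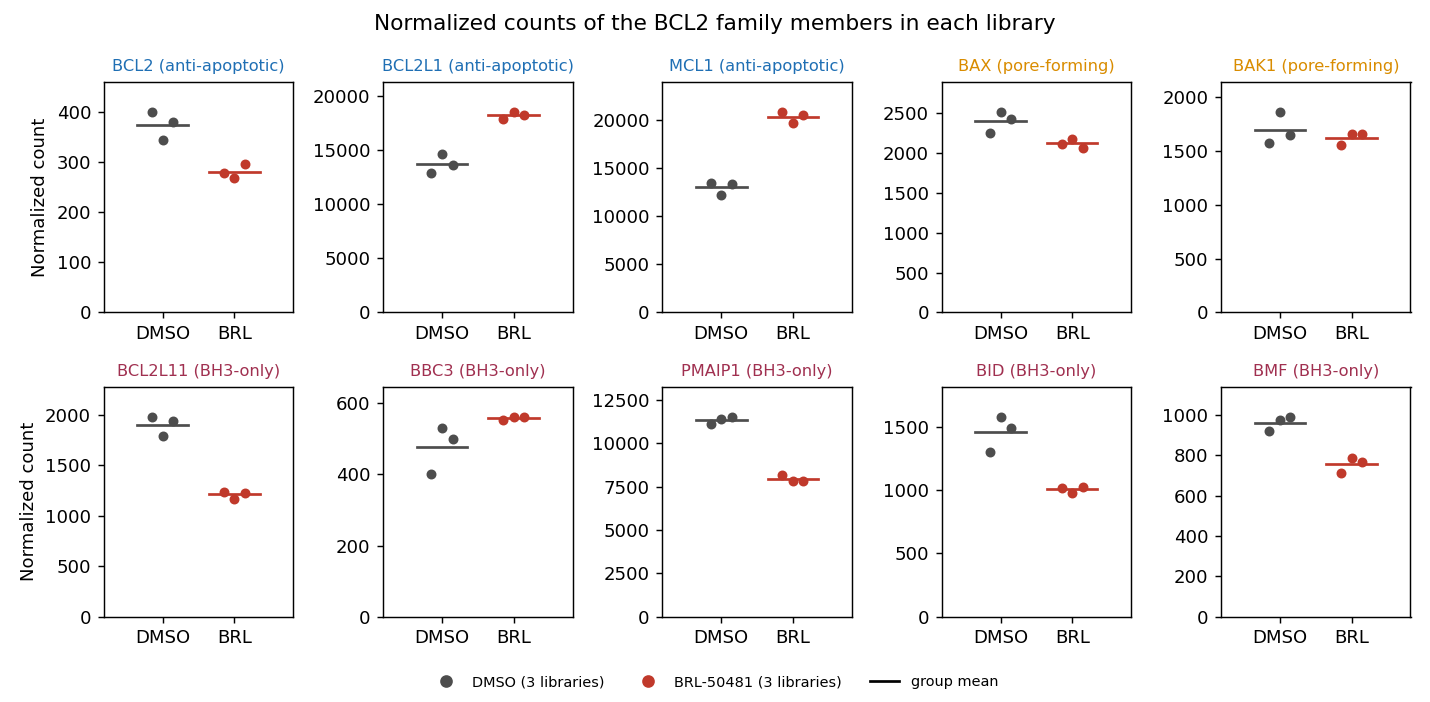
Normalized counts of each of the 10 members (vertical axis, from 0, a scale of its own in each panel) in the 3 DMSO libraries and the 3 BRL-50481 libraries, with points for libraries and lines for group means. MCL1, BCL2L1 and BBC3 lay higher in all BRL-50481 libraries, BCL2, BCL2L11, PMAIP1, BID, BMF and BAX lower, and the groups of BAK1 overlapped.

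MCL1, a short-lived anti-apoptotic protein that binds BAK1 and several BH3-only proteins, showed the largest rise of the members. It was at 13484, 12257 and 13366 normalized counts in the DMSO libraries and at 20848, 19722 and 20608 in the BRL-50481 libraries. Every treated library lay well above every control library, and the mean went from 13036 ± 677 to 20393 ± 593 (SD, n = 3 each). The rise was 56.5%, or 0.65 on the log2 scale (SE 0.0493, limma adjusted p = 2.21e-07), and 77.5% of all genes tested had a smaller absolute change. MCL1 lies at chr1:150560895-150579738 on the minus strand of hg38 (GENCODE release 44), where its exons overlap those of ADAMTSL4-AS1 on the same strand, so reads from that stretch could belong to either gene. Gene counts do not separate the long, anti-apoptotic splice form of MCL1 from its short form.

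BCL2L1 encodes BCL-XL, which restrains BAX and BAK1, and by alternative splicing the pro-apoptotic BCL-XS, which gene counts do not separate from it. It stood at 12876, 14637 and 13673 normalized counts under DMSO and at 17936, 18523 and 18284 under BRL-50481. The groups were clear of each other, and the treated libraries varied less (13729 ± 882 against 18248 ± 295, SD, n = 3 each). This was a rise of 33.1%, or 0.41 on the log2 scale (SE 0.0509, limma adjusted p = 1.48e-05). The gene spans chr20:31664452-31723989 on the minus strand.

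BCL2, the founding anti-apoptotic member, went the other way. Its normalized counts were 400, 345 and 380 in DMSO and 279, 269 and 297 in BRL-50481. The highest treated library was below the lowest control library, and the mean fell from 375 ± 27.9 to 281 ± 14.0 (SD, n = 3 each). Its log2 fold change was -0.41 (SE 0.0937, limma adjusted p = 0.00208). BCL2, at chr18:63123346-63320128 on the minus strand, was the member with the fewest reads, with 267 to 403 per library.

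**Figure D2:**
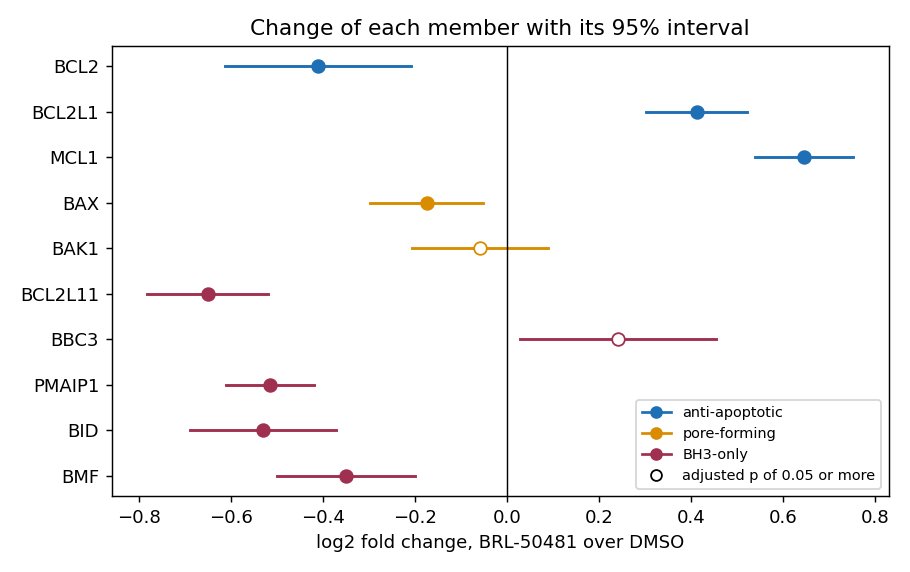
Log2 fold change of each member, BRL-50481 over DMSO (horizontal axis), with its 95% interval from the limma fit over all genes; the color gives the role, and open circles mark members with an adjusted p of 0.05 or more. MCL1 (0.65) and BCL2L11 (-0.65) lie at the ends, and the interval of BAK1 includes 0.

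Of the pore-forming members, BAX fell slightly and BAK1 did not pass the test. BAX, which moves from the cytosol to the mitochondrion to form pores, was at 2254, 2511 and 2425 normalized counts in DMSO and at 2119, 2176 and 2068 in BRL-50481. The treated libraries all lay below the control libraries, by a log2 difference of only -0.18 between the groups (SE 0.0570, limma adjusted p = 0.0177). This call was lost without the second or the third DMSO library (adjusted p = 0.0586 and 0.0652) and without the first or the third BRL-50481 library (0.0553 and 0.0843), and the log2 fold change was -0.07 after a correction for transcript length and GC content (adjusted p = 0.159). BAX lies at chr19:48954815-48961798 on the plus strand.

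BAK1, which resides in the mitochondrial membrane, was at 1577, 1859 and 1649 normalized counts in DMSO and at 1551, 1661 and 1657 in BRL-50481. The groups overlapped, with a log2 fold change of -0.06 (SE 0.0683, 95% interval -0.21 to 0.088, limma adjusted p = 0.474). The interval leaves room for a decrease of the size seen for BAX. BAK1 spans chr6:33572547-33580293 on the minus strand.

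Among the BH3-only members, 4 of 5 fell and BBC3 did not pass the test. BCL2L11, which encodes BIM, a BH3-only protein that binds all anti-apoptotic members and activates BAX, had the largest decrease. Its normalized counts were 1981, 1788 and 1938 in DMSO and 1234, 1168 and 1227 in BRL-50481, so that no treated library came near a control library. The mean dropped by 36.3% on the fitted scale, a log2 fold change of -0.65 (SE 0.0609, limma adjusted p = 1.29e-06). BCL2L11 lies at chr2:111119378-111168444 on the plus strand, and its splice forms, which differ in potency, were not separated.

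BID, which caspase-8 cleaves to link death receptors to mitochondria, followed closely. It was at 1305, 1583 and 1491 normalized counts in DMSO and at 1019, 981 and 1022 in BRL-50481. The treated libraries were close together and below all controls (1460 ± 142 against 1007 ± 22.6, SD, n = 3 each), with a log2 fold change of -0.53 (SE 0.0736, limma adjusted p = 4.05e-05). BID is at chr22:17734138-17774770 on the minus strand.

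PMAIP1 encodes NOXA, a BH3-only protein that binds mainly MCL1. Its normalized counts were 11152, 11416 and 11556 in DMSO and 8190, 7845 and 7842 in BRL-50481. Both groups were tight and far apart, and the log2 fold change was -0.52 (SE 0.0442, limma adjusted p = 6.13e-07). In normalized counts PMAIP1 lost more than any other pro-apoptotic member. It is a small gene at chr18:59899996-59904305 on the plus strand.

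BMF, a BH3-only protein that is released from the cytoskeleton when cells detach, was at 918, 975 and 992 normalized counts in DMSO and at 710, 788 and 766 in BRL-50481. The groups did not overlap, with a log2 fold change of -0.35 (SE 0.0695, limma adjusted p = 0.000759). BMF lies at chr15:40087890-40108892 on the minus strand.

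BBC3, which encodes PUMA, a BH3-only protein that binds all anti-apoptotic members, was the exception in direction. It was at 402, 530 and 499 normalized counts in DMSO and at 555, 562 and 563 in BRL-50481. All treated libraries lay above all control libraries, but the first DMSO library was far below the other two, and the log2 fold change of 0.24 did not pass the test (SE 0.0986, 95% interval 0.027 to 0.45, limma adjusted p = 0.0507). Without the first DMSO library the log2 fold change was 0.12 (adjusted p = 0.183), and without the second it was 0.32 (adjusted p = 0.0121). With the correction for length and GC content it was 0.38 (adjusted p = 0.000108). BBC3 lies at chr19:47220822-47232766 on the minus strand, and its exons overlap the microRNA gene MIR3191 on that strand.

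In counts of libraries, 3 of 10 members had all 3 BRL-50481 libraries above all 3 DMSO libraries (MCL1, BCL2L1 and BBC3), which 31.9% of all genes tested did, and 6 of 10 had them all below, which 32.3% of all genes did.

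**Figure D3:**
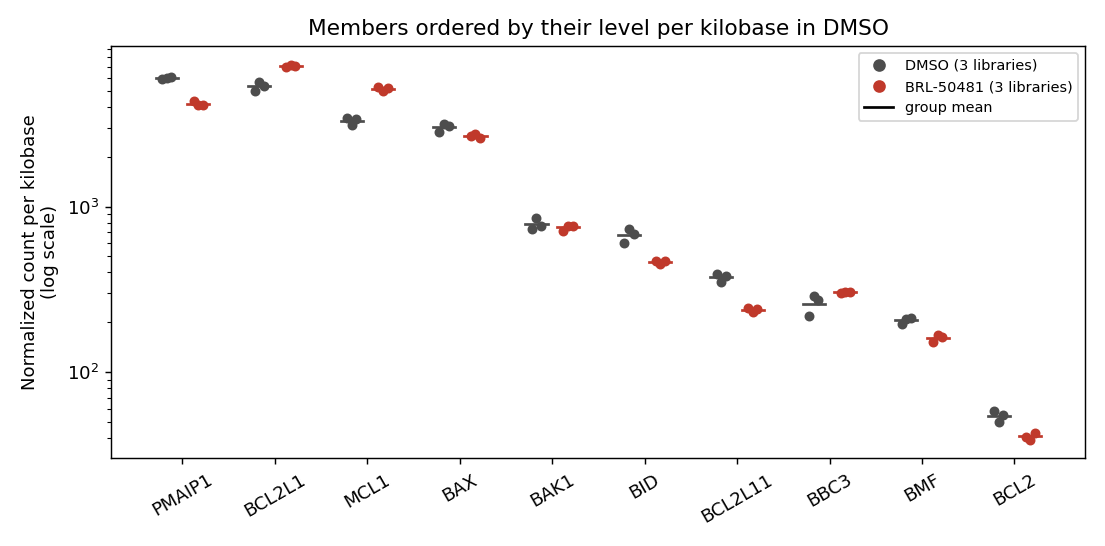
Normalized counts per kilobase of the canonical transcript (vertical axis, log scale) for the 10 members, ordered by their mean in DMSO, with points for libraries and lines for group means. PMAIP1 stands first in DMSO at 5990 and behind BCL2L1 and MCL1 in BRL-50481 at 4191, while BCL2 is last in both.

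Per kilobase of the canonical GENCODE transcript, which allows a rough comparison of levels between genes, 4 members were far above the others. In DMSO, PMAIP1 had 5990 ± 108 normalized counts per kilobase, BCL2L1 5334 ± 343, MCL1 3300 ± 171 and BAX 3015 ± 164 (SD, n = 3 each). Below them came BAK1 with 781, BID with 671, BCL2L11 with 373, BBC3 with 258, BMF with 205 and BCL2 with 54.5. MCL1 and BAX overlapped in their DMSO libraries, as did BAK1 and BID, and all other neighbors in this order were apart. BCL2 thus had the lowest level of the set, although it is the gene for which the family is named.

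Under BRL-50481, the order at the top changed. BCL2L1 came first with 7089 ± 115 normalized counts per kilobase, then MCL1 with 5163 ± 150 and PMAIP1 with 4191 ± 105 (SD, n = 3 each), and BAX followed with 2668. BBC3, at 303, moved past BCL2L11, at 237. The libraries of BCL2L1, MCL1, PMAIP1 and BAX did not overlap one another in this group.

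Set against each other within a library, the summed level per kilobase of the 3 anti-apoptotic members was 0.782, 0.762 and 0.765 times that of the 7 pro-apoptotic members in the DMSO libraries and 1.39, 1.39 and 1.43 times in the BRL-50481 libraries. The ratio was thus below 1 in every control and above 1 in every treated library. Its means were 0.770 ± 0.0108 and 1.40 ± 0.0207 (SD, n = 3 each). On which side of 1 it lies depends on the canonical transcript lengths used, while reads were counted on the UCSC annotation. The ratio moved from both sides. The anti-apoptotic sum went from 8688 to 12293 normalized counts per kilobase and the pro-apoptotic sum from 11293 to 8771. Against the BH3-only members alone, the ratio went from 1.16 ± 0.0108 to 2.30 ± 0.0453. These sums are dominated by a few genes: MCL1 and BCL2L1 made up 99.3% to 99.7% of the anti-apoptotic sum in each library and PMAIP1 77.8% to 80.7% of the BH3-only sum. The mean log2 normalized count of the pro-apoptotic members minus that of the anti-apoptotic members, which weights each gene equally, was -1.29, -1.09 and -1.18 in DMSO and -1.70, -1.66 and -1.72 in BRL-50481. Both measures are descriptions of RNA levels over chosen genes and carry no test.

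**Figure D4:**
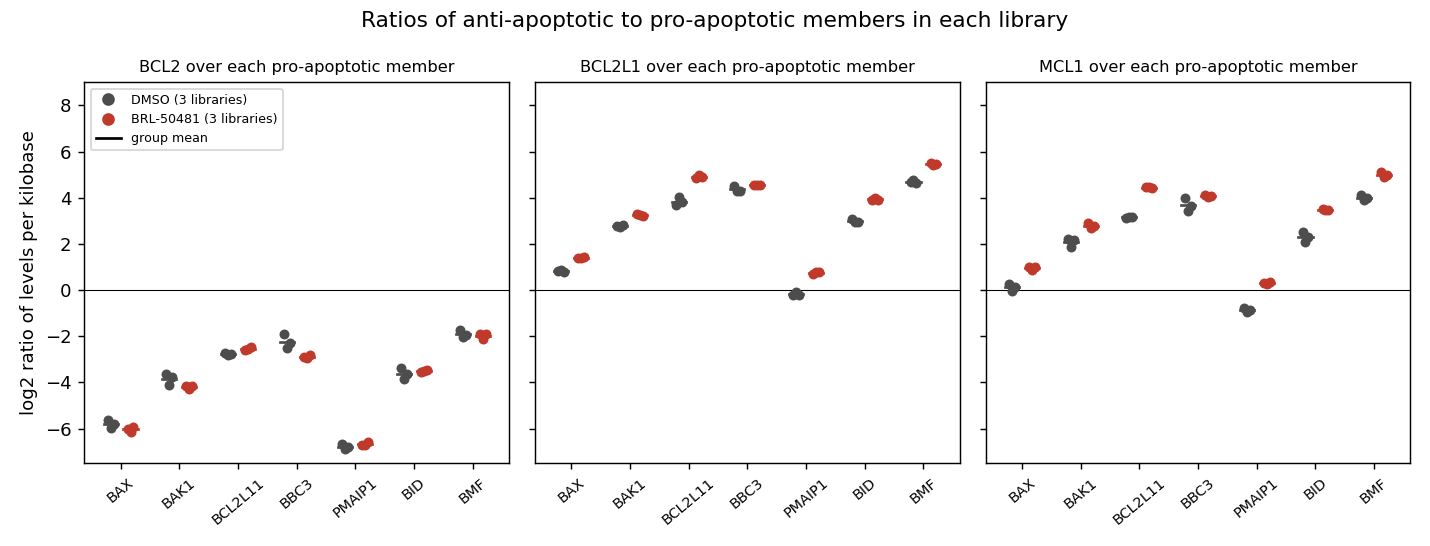
Log2 ratio of the level per kilobase of each anti-apoptotic member (1 panel each) to that of each pro-apoptotic member (horizontal axis) in the 3 DMSO and 3 BRL-50481 libraries, with lines for group means. All ratios of MCL1 and BCL2L1 lie higher in the BRL-50481 libraries, while for BCL2 1 ratio lies above, 2 lie below and 4 overlap.

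The 21 pairs of 1 anti-apoptotic and 1 pro-apoptotic member restate the member levels as ratios, so they are not independent of one another. The share of all gene pairs whose ratios separated the groups was not computed. For MCL1, the ratio to each of the 7 pro-apoptotic members was higher in every BRL-50481 library than in any DMSO library, by 0.41 to 1.30 on the log2 scale. For BCL2L1, the same held for 7 of 7 ratios, by 0.17 to 1.06. For BCL2, 1 ratio lay above (to BCL2L11), 2 lay below (to BAK1 and BBC3) and 4 overlapped.

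MCL1 and NOXA are known binding partners, and their genes changed places in level per kilobase. In normalized counts not divided by length, MCL1 was already above PMAIP1 in DMSO (means 13036 and 11375). In DMSO the level of MCL1 was 0.551 times that of PMAIP1 per kilobase, and in BRL-50481 it was 1.23 times that level, a shift of 1.16 on the log2 scale. The ratio of MCL1 to BCL2L11 moved most, from 8.85 to 21.8, with log2 ratios of 3.15 ± 0.00976 (DMSO) and 4.44 ± 0.00456 (BRL-50481, SD over 3 libraries each). The ratio of BCL2L1 to BAX went from 1.77 to 2.66. The smallest shift for BCL2L1 was against BBC3, from 20.8 to 23.4.

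PDE7A degrades cAMP, and cAMP signals in part through CREB, a transcription factor that binds the cAMP response element (CRE). The promoters of the members were therefore searched for the CRE half-site TGACG on both strands, in windows from 250 bases before to 50 bases after each RefSeq start (GRCh38.p14). Of the 10 members, 9 matched a window by symbol, and MCL1 was not among them. The half-site occurred for 5 of the 9 (BCL2, BCL2L1, BAX, PMAIP1 and BMF), against 28.4% of all genes in the table and 24.6% of its 35116 windows. The stretches around it are shown because the half-site lies in them, each 5′ to 3′ on the strand of the gene, with the half-site or its reverse complement CGTCA in capitals. They lie at chr18:63319960-63320019 (BCL2, minus strand), chr20:31724130-31724194 (BCL2L1, minus strand), chr19:48954711-48954775 (BAX, plus strand), chr18:59899911-59899975 (PMAIP1, plus strand) and chr15:40108902-40108966 (BMF, minus strand).

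BCL2: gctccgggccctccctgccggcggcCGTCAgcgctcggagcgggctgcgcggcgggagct

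BCL2L1: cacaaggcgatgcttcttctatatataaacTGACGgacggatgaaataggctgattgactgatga

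BAX: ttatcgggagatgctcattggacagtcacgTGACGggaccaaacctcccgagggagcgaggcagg

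PMAIP1: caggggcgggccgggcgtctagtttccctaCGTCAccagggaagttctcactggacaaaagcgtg

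BMF: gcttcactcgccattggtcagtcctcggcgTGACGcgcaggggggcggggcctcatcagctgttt

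In PMAIP1 and BMF the half-site ends 50 and 52 bases before the start, in BAX 129 bases, and in BCL2L1 and BCL2 196 and 220 bases, all counted from the RefSeq start. The RefSeq start of BCL2 lies inside the GENCODE span given above, so the BCL2 stretch falls within that span. The 5 genes moved in both directions, as BCL2L1 rose and the other 4 fell. An AP-1 site (TGANTCA) occurred in the window of BBC3 alone among the 9, against 9.37% of all genes and 7.71% of windows, and an E2F core (TTTNGCGC) in that of BCL2L1 alone, against 2.17% of genes and 1.79% of windows. A match is a description of the letters and does not show binding, and no match says only that the letters are not in the window.

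**Figure D5:**
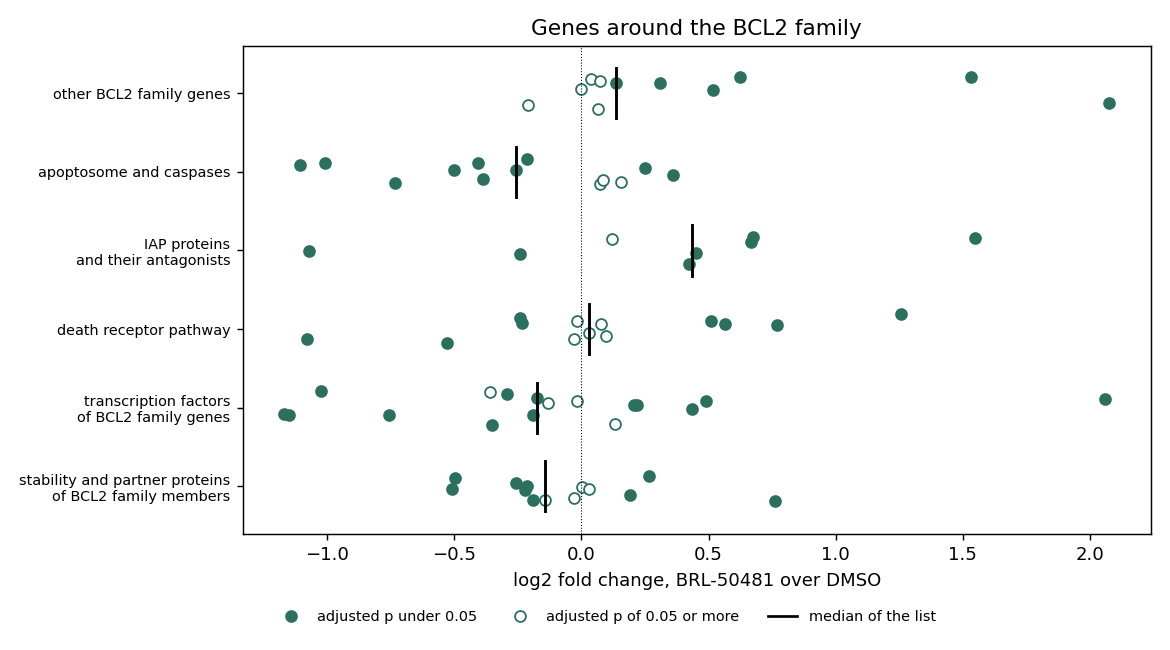
Log2 fold changes, BRL-50481 over DMSO (horizontal axis), of the tested genes in 6 lists around the family; filled circles passed an adjusted p of 0.05, open circles did not, and black lines give the medians. The median lies at 0.44 for IAP proteins and their antagonists and at -0.26 for the apoptosome and caspases.

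Among 14 other genes of the family, 11 were tested, of which 6 were called higher, 0 lower and 5 not called by limma. Of all genes tested, 28.9% were called higher and 29.8% lower. Their median log2 fold change was 0.14. BCL2A1, an anti-apoptotic member induced by NF-κB, had the largest rise, from 69.5, 53.9 and 66.4 normalized counts to 265, 256 and 285 (log2 fold change 2.08, SE 0.136, limma adjusted p = 6.14e-08). The groups were far apart, and the gene is not part of the sums above. BIK, a pro-apoptotic BH3-only gene, rose too (0.63, limma adjusted p = 0.00375), as did BCL2L13 (0.52) and BNIP3 (0.31), both linked to mitophagy. BNIP3L was called higher by 0.14 (limma adjusted p = 0.0315), a call lost without any library other than the first DMSO library (0.0569 to 0.142). The sixth gene was BCL2L15, at no more than 24.2 normalized counts, named after its values were seen. BAD, a pro-apoptotic BH3-only gene also named after its values were seen, was called lower by edgeR and by DESeq2 (1 gene each) and was the 1 gene lower at an unadjusted limma p under 0.05, while its limma adjusted p was 0.0513.

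In the list of the apoptosome and the caspases, 8 of 13 genes fell, 2 rose and 3 were not called. Over all genes tested, 29.8% fell and 28.9% rose, and 38.6% fell among those with a mean normalized count of 300 or more. CYCS, cytochrome c itself, had the largest fall, from 11132 ± 479 to 5168 ± 240 (normalized counts, SD, n = 3 each, log2 fold change -1.11, limma adjusted p = 3.85e-09). DFFB, the nuclease that cuts DNA in dying cells, and DFFA, its inhibitor, fell together (-1.01 and -0.73). The genes that rose were CASP8, the initiator caspase of death receptors (0.36, limma adjusted p = 0.000294), and CASP9, the initiator at the apoptosome (0.25, limma adjusted p = 0.0478). The call of CASP9 was lost without the second or the third library of either group (0.0946 to 0.160).

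IAP proteins are inhibitors of apoptosis, and some of them block caspases directly. Of 8 genes of IAP proteins and their antagonists tested, 5 rose, 2 fell and 1 was not called, while 28.9% of all genes tested rose and 29.8% fell. The gene not called was XIAP (0.12, limma adjusted p = 0.172), a direct caspase inhibitor, named after its values were seen. BIRC3 and BIRC2, which encode cellular IAPs, rose by 0.67 and 0.45, and BIRC5, which encodes survivin, rose by 0.68. BIRC6, named after its values were seen, rose by 0.42. Its normalized counts were 3773, 2304 and 2883 in DMSO and 3939, 3907 and 3926 in BRL-50481. Genes of this list called higher went from 5 to 4 with the length and GC correction, DESeq2 or limma without a trend. They went to 6 with quantile normalization or without the first DMSO library. HTRA2 and DIABLO, mitochondrial proteins that counter IAPs once released by BAX or BAK1, both fell (-1.07 and -0.24). XAF1, an antagonist of XIAP and an interferon-responsive gene, did not share their direction and rose from 240 ± 35.6 to 699 ± 23.1 normalized counts (SD, n = 3 each, log2 fold change 1.55, limma adjusted p = 9.65e-08).

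In the death receptor pathway, 4 of 13 genes rose, 4 fell and 5 were not called. These counts lie near the shares over all genes tested (28.9% higher and 29.8% lower). TNFSF10, the ligand TRAIL, rose by 0.77, and CFLAR, which restrains caspase-8, rose by 0.56. Of the TRAIL receptors, TNFRSF10A fell by 0.53 on the log2 scale, the decoy TNFRSF10D had a log2 fold change of -1.08, and TNFRSF10B, the most abundant gene of this list, was not called (0.08, limma adjusted p = 0.163), although it was without the first DMSO library (0.10, adjusted p = 0.0181). TNFRSF21, another death receptor, rose by 0.51, and RIPK1, a kinase of TNF signaling, had a log2 fold change of -0.24. TNFRSF10C, also a decoy receptor for TRAIL, went the other way from TNFRSF10D (1.26), at no more than 64.5 normalized counts. TNFRSF10C and TRAF2 (-0.23), named after their values were seen, complete the calls.

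Of 17 transcription factors known to act on genes of the family, 5 rose, 8 fell and 4 were not called. The shares over all genes tested were 28.9% higher and 29.8% lower, with 38.6% lower among those with a mean normalized count of 300 or more. MYC, which induces BCL2L11 among many targets, fell from 27641 ± 1435 to 12291 ± 177 (normalized counts, SD, n = 3 each, log2 fold change -1.17, limma adjusted p = 1.63e-09). E2F1 (-1.15) and ATF3 (-1.02), which act on BH3-only genes, fell as well. CREB1 rose by 0.49, NFKB1 by 0.43 and HIF1A by 0.21. TP63, at no more than 37.8 normalized counts and named after its values were seen, rose too.

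Of 13 genes of proteins that bind members or set their stability, 3 rose, 6 fell and 4 were not called. Again, 28.9% of all genes tested rose and 29.8% fell, and 38.6% fell among those with a mean normalized count of 300 or more. HUWE1, a ubiquitin ligase for MCL1, rose by 0.76, from 20545, 14218 and 14877 to 27122, 28458 and 27485 normalized counts. USP9X, which removes ubiquitin from MCL1, rose by 0.27 and FBXW7, another ligase subunit for MCL1, by 0.19. After the correction for length and GC content these 2 genes were at 0.015 and 0.058 and no longer called (limma adjusted p = 0.642 and 0.362), and FBXW7 was also lost without any library other than the first DMSO library (0.0684 to 0.122). BAG3, a co-chaperone that binds BCL2, had a log2 fold change of -0.51, VDAC2, a channel that holds BAK1 at the mitochondrion, of -0.50, and BTRC, a ligase subunit for BIM, of -0.26. BAG6, an abundant chaperone, was not called (0.00, limma adjusted p = 0.967).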

How the data were processed

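The deposited signal values are normalized counts, made by the authors from reads per gene and a size factor per library. According to the Methods and the labels, the authors aligned reads to hg38 with STAR (2.7.1a), counted them per gene in reverse-strand mode with HTSeq on the UCSC annotation, and normalized with DESeq2 (1.28). The labels describe oligo-dT selection and the series record ribosomal RNA depletion. The deposited mean, log2 fold change and p-value columns are the authors' own comparison and were not used.

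Genes that reached 4 normalized counts in 3 or more libraries were kept (15246; 405, or 2.59%, left out) and tested with limma 3.58.1 in R 4.3.3 (trended eBayes) on log2 values after a pseudocount of 1, with the group as the only term and Benjamini-Hochberg adjustment. All values (100%, within 0.001 reads) were whole multiples of 1 read, so edgeR 4.0.16 and DESeq2 1.42.0 were run on recovered reads as alternatives. Scripts were checked on simulated data. Positions, lengths and GC content came from GENCODE release 44 (96.5% of genes matched) and promoters from RefSeq. Protein sequences were not analysed here, and some listed genes are not reported here.

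The members and lists were chosen with earlier results of these data known. From each list other than the members, the genes named are the called ones whose mean normalized count was 100 or more, up to the 3 largest changes in each direction, and the 2 most abundant. Other alternatives were pseudocounts of 0.5 and 4, other filters, quantile normalization, median centring, a loess correction for length and GC content, limma without a trend, the replicate number as a block, and leaving out each library.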

Additional observations from a re-analysis of the deposited data

How the results depend on the processing

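Of the 10 members, 7 kept their direction and their side of the threshold under all 17 alternatives, with MCL1 between 0.57 and 0.75 and BCL2L11 between -0.77 and -0.61 on the log2 scale. BAK1 was called in 0 of 17 and turned from -0.06 to 0.0091 without the second DMSO library, while BAX was called in 10 and BBC3 in 5 of 17. The members called ranged from 7 to 9. BCL2 had the fewest reads of the members (267 in 1 library), and with 3 libraries per group small differences such as those of BAX and BBC3 could not be settled. The libraries do not separate splice forms.

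The median log2 fold change of the pro-apoptotic minus that of the anti-apoptotic members was -0.76, -0.85 after the length and GC correction, and -0.80 to -0.73 without 1 library. Other BCL2 family genes called lower went from 0 to 1 (BAD) with a pseudocount of 4, edgeR, DESeq2, the replicate block or without the first DMSO library (0 to 1 over the libraries left out). Apoptosome and caspase genes called higher went from 2 to 1 with a pseudocount of 4, no filter, quantile normalization, DESeq2 or the replicate block, and lay between 1 and 4 without 1 library. With the length and GC correction, stability and partner genes called higher went from 3 to 1, and also to 1 by limma without a trend. The causes were not tested.

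Same-numbered libraries of the groups correlated by 0.121, 0.104 and 0.0514 in their deviations over 12251 genes. Of the 6 libraries, 5 correlated best with their own number. No label states a pairing, so the main test did not use the numbers, and whether the libraries are paired was not settled. With the replicate block, 9029 genes were called against 8946, and 9 members against 8, BBC3 being the added one (limma adjusted p = 0.0373).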
